A study of Homo sapiens with 12 samples.

Results

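WM35, an established human melanoma cell line, was given lactimidomycin (LTM) for 24 h or the vehicle DMSO, and the messenger RNA of the cells was compared on Illumina 1-colour BeadChip arrays. The comparison used 4 of the 12 arrays of the series, 2 titled as LTM at 24 h and 2 titled as control, and all genes with a named probe detected on at least 2 of the 12 arrays. These were 12131 genes, read from 15954 named probes of 24325 that passed the detection threshold. LTM was given at a concentration that inhibited the cells by 75%, as determined earlier at 72 h. The vehicle arrays carry no time in their titles, so the time the control cells spent in culture after plating is not known. Whether the 2 arrays of a group hold RNA of separate cultures is not stated, and p-values then cover only the spread between these arrays, which may be technical.

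LTM blocks the elongation step of translation: it sits in the exit site of the large ribosomal subunit and stops the translocation of ribosomes. In mammalian cells a block of elongation is known to have several consequences for messenger RNA. Stalled ribosomes can switch on stress kinases, loss of labile repressor proteins can raise transcription of immediate early and NF-kB target genes, and transcripts whose decay depends on translation, such as targets of nonsense-mediated decay, can persist. Transcripts with a long half-life keep their level longer than short-lived ones when transcription changes.

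Of 47230 probes, 19889 and 20249 were detected on the vehicle arrays and 20551 and 20218 on the LTM arrays. All values below are log2 intensities after background correction and quantile normalization, and differences are LTM minus vehicle with a standard error (SE). This SE is the moderated one of limma, which combines the spread over the gene's own 2 arrays a group with a spread shared by all genes. It is therefore not the spread of that gene's arrays alone. The arrays were brought to the same distribution, so a change in the total amount of messenger RNA per cell cannot be seen and every rise or fall is relative to the other genes. In cultures of this kind fewer cells of a type and less RNA per cell cannot be told apart. The median absolute difference between replicate arrays was 0.11 for vehicle and 0.21 for LTM, against a median absolute difference of 0.58 between the groups. Of 13 melanoma markers 7 were measured: SOX10, the neural crest transcription factor of melanoma cells, was at 11.42 and 11.39 with vehicle, and CSPG4, a melanoma proteoglycan, at 10.15 and 10.16 with vehicle. With LTM 1 of the 7 rose and 4 fell, with 1 and 3 of these at least 2-fold, and their median was -0.56. The pigment cell gene PMEL was at 4.48 and 5.14 with vehicle, near background, and TYR, MLANA, DCT and TYRP1 were not among the tested genes. Epithelial markers gave 0 calls among 2 tested genes, and 3 leukocyte markers gave 1 call, a lower CD68 (-0.66 ± 0.14) that another of its probes did not share and that the fit of 12 arrays did not call.

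After 24 h of LTM 3619 genes rose (29.8% of those tested) and 3752 fell (30.9%) at an adjusted p under 0.05 with limma. Changes in either direction came to 7371 genes (60.8%). At least 2-fold changes were called for 1737 genes that rose (14.3%) and 1688 that fell (13.9%). The size of the changes was lopsided at the extremes: 72 genes rose 8-fold or more and 1 fell as much, while at 4-fold the counts were 370 and 215. Intensities cannot fall far below background, so dim genes had less room to fall than to rise. How much of the difference between these counts comes from this limit was not tested. There were 454 genes not above background on either vehicle array and detected on both LTM arrays, of which 383 rose, and 309 genes with the reverse pattern, of which 261 fell. The median over all genes was -0.03. A limma fit of all 12 arrays, in which the spread of the other groups enters the error, gave 2885 rises and 2866 falls. Of the 247 called genes named here 27 did not pass in that fit, and they are listed beside their values. Some arrays of the other groups were reported earlier to go against their labels, which widens that spread. A fit of 9 arrays without them gave 3788 rises and 3914 falls, and the named calls held in it.

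**Figure D1:**
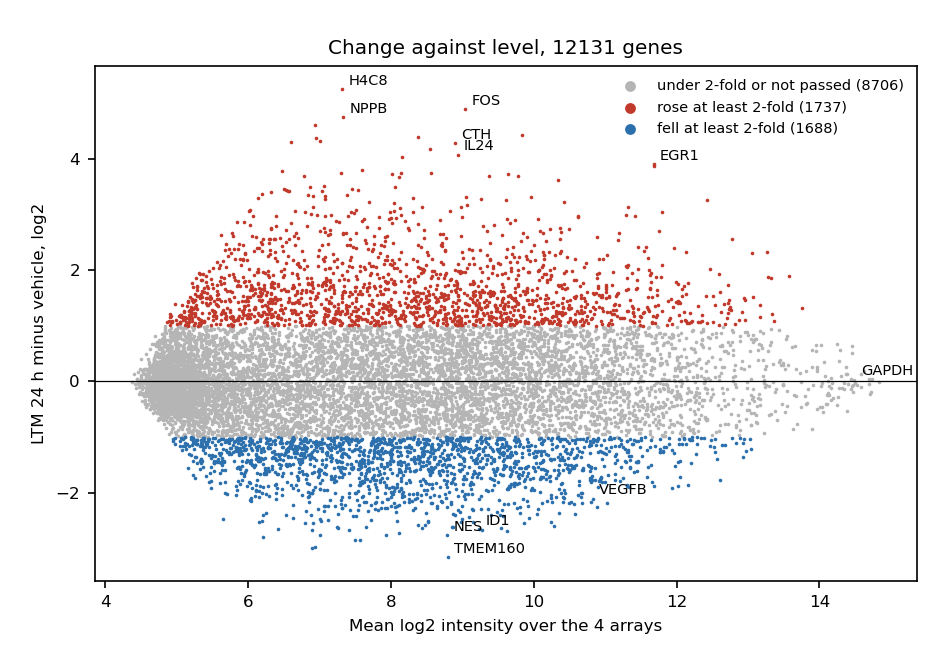
Each point is 1 of 12131 genes, with its mean log2 intensity over the 4 arrays on the horizontal axis and the log2 difference, LTM at 24 h minus vehicle, on the vertical axis. Red points rose and blue points fell at least 2-fold with an adjusted p under 0.05, and the largest rises reach further from 0 than the largest falls. Dim genes had less room to fall than to rise.

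The 20 largest rises held genes of unrelated functions besides the stress and immediate early genes described below. The largest was H4C8, a gene of core histone H4, at 4.64 and 4.75 on the vehicle arrays and 10.13 and 9.74 on the LTM arrays; it was not above background on either vehicle array, which makes the rise at least 32.3-fold (adjusted p = 5.81e-07). NPPB, the precursor of B-type natriuretic peptide, was at 5.11 and 4.81 and 9.90 and 9.51 (4.74 ± 0.18, adjusted p = 6.47e-07). TXNIP, an inhibitor of thioredoxin that responds to glucose, was at 9.80 and 9.71 and 13.64 and 13.60 (3.86 ± 0.14, adjusted p = 6.3e-07). In each of these genes both LTM arrays lay more than 3 log2 units above both vehicle arrays. GDA, the enzyme that deaminates guanine, rose by 4.02 ± 0.16. RUNDC3B and the axonemal dynein DNAH3 were not above background on either vehicle array and were at least 19.9-fold and 10.9-fold higher with LTM.

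The largest fall was TMEM160, a small mitochondrial membrane protein, from 10.33 and 10.43 to 7.23 and 7.21 (-3.16 ± 0.14, adjusted p = 9.23e-07). NES, the intermediate filament nestin of neural crest and stem-like cells, went from 10.07 and 10.26 to 7.58 and 7.22 (-2.76 ± 0.17, adjusted p = 2.45e-06). CHCHD10, a protein of the mitochondrial intermembrane space, went from 8.99 and 8.998 to 6.27 and 6.03 (-2.85 ± 0.15, adjusted p = 1.42e-06). The replicate arrays of these genes differed by far less than the groups did. Falls of this size were also seen for NME3, a nucleoside diphosphate kinase (-2.86 ± 0.14), TEAD2, a partner of YAP on DNA (-2.62 ± 0.16), and DLL3, a Notch ligand (-2.73 ± 0.15). MXD3, a MYC antagonist, was not above background with LTM and at least 6.54-fold lower. Another probe of DLL3 gave -0.28, which did not pass.

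Genes for secreted factors did not move as 1 block. Of 199 tested genes over the secreted lists 57 rose (28.6%) and 63 fell (31.7%), with a median of -0.07. At least 2-fold 34 rose (17.1%) and 48 fell (24.1%), against 14.3% and 13.9% of all genes. The cytokines stood on the rising side: of 18 tested genes 10 rose and 0 fell, with 7 and 0 of these at least 2-fold, and the median was 0.75. Their median vehicle level was 5.04, near the lowest detected values of the vehicle arrays, 4.93 and 4.91. Dim members thus had little room to fall, and the count of 0 falls is limited by this. IL24, a cytokine of the IL-10 family first described in melanoma cells, was at 7.03 and 6.76 on the vehicle arrays and 11.07 and 10.87 on the LTM arrays (4.07 ± 0.16, adjusted p = 6.47e-07). IL1A, an alarmin that activates NF-kB, was at 8.35 and 8.14 and 10.78 and 10.96 (2.63 ± 0.16, adjusted p = 2.14e-06). LIF, a cytokine that signals through gp130, was at 5.51 and 5.43 and 7.05 and 7.01 (1.56 ± 0.14, adjusted p = 1.68e-05). IL6 and IL32 crossed from background to detection: neither was above background on the vehicle arrays, and they were at least 4.52-fold and 10.1-fold higher with LTM. LIF did not pass in the fit of 12 arrays.

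Of chemokines, which guide leukocytes, a share near that of all genes fell (33.3% against 30.9%) and a smaller one rose (11.1% against 29.8%): of 9 tested genes 1 rose and 3 fell, with 0 and 2 of these at least 2-fold, and the median was -0.16. CXCL8 (interleukin 8), whose transcript carries AU-rich decay elements, was high in all 4 arrays, at 12.31 and 12.27 with vehicle and 12.36 and 12.41 with LTM (0.10 ± 0.14, adjusted p = 0.579). CCL2, the monocyte chemoattractant, fell from 8.94 and 8.79 to 7.71 and 7.12 (-1.45 ± 0.20, adjusted p = 0.000185). MIF, an abundant cytokine with a very short gene, fell from 12.998 and 13.18 to 11.24 and 11.23 (-1.86 ± 0.15, adjusted p = 8.21e-06). CCL26, an eosinophil attractant, fell to background, at least 1.16-fold (adjusted p = 0.00744). The call among rises was CXCL10, an interferon-induced chemokine, which was not above background with vehicle and at least 1.22-fold higher (adjusted p = 0.0406). CCL5, CCL20, CXCL11 and CXCL16 did not pass, with differences between -0.17 and 0.20. The chemokine median changed sign, to 0.07, without LTM replicate 1. In the fit of 12 arrays neither CCL2 nor CXCL10 passed; CXCL10 also lost its call without either vehicle array or LTM replicate 1 (0.28 to 0.42), with the trended robust eBayes (0.42), under median scaling (0.40), with an offset of 50 (0.20) and in the authors' deposited table (0.14). CCL26 lost its call without vehicle replicate 2 (-0.47), with an offset of 50 (-0.27) and in the authors' deposited table (-0.51).

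Ligands of receptor tyrosine kinases were more often higher: of 30 tested genes 13 rose and 5 fell, with 8 and 4 of these at least 2-fold, and the median was 0.14. Ligands of the vascular endothelial growth factor family went opposite ways. VEGFA, the main angiogenic member, was at 7.22 and 7.30 with vehicle and 8.59 and 8.63 with LTM (1.35 ± 0.14, adjusted p = 3.71e-05). VEGFB, its relative that binds VEGFR1, was at 11.90 and 11.85 and 9.94 and 9.60 (-2.10 ± 0.16, adjusted p = 7.01e-06). Another probe of each gene moved the same way (1.26 for VEGFA and -1.75 for VEGFB). Of ligands of the epidermal growth factor family, HBEGF rose by 1.28 ± 0.14 and the ERBB3 ligand NRG1 by 1.40 ± 0.17. The membrane-bound EFNB2, ligand of Eph receptors, showed the largest rise of the list (2.23 ± 0.15), followed by FGF1 (1.62 ± 0.17) and the AXL ligand GAS6 (1.60 ± 0.19). The heparin-binding growth factor MDK fell by 1.91 ± 0.16 and FGF13, a non-secreted member of the fibroblast growth factor family, by 1.42 ± 0.18. NRG1 did not pass in the fit of 12 arrays.

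TGF-beta superfamily ligands and their antagonists leaned to lower values: of 14 tested genes 2 rose and 7 fell, with 0 and 4 of these at least 2-fold, and the median was -0.26. FST, follistatin, which binds activins, went from 11.04 and 10.84 to 9.17 and 8.80 (-1.95 ± 0.17, adjusted p = 1.3e-05). GDF11 differed by -1.94 ± 0.15, BMP6 by -1.21 ± 0.15, and LTBP3, which holds latent TGF-beta in the matrix, by -2.07 ± 0.14, although another LTBP3 probe gave -0.40 and did not pass. GDF15, a stress-responsive member that circulates in disease, rose from 5.18 and 5.44 to 6.16 and 5.92 (0.73 ± 0.16), and BMP2 rose by 0.70 ± 0.14. The Wnt list held few genes: of 10 tested genes 1 rose and 4 fell, with 0 and 3 of these at least 2-fold, and the median was -0.22. The antagonist SFRP1 went from 10.86 and 10.80 to 8.77 and 9.08 (-1.90 ± 0.16), DKK3 differed by -1.86 ± 0.19 on its brightest probe and by -1.59 and -0.24 on its other probes, and the ligand WNT5A differed by -1.26 ± 0.16. WNT10B fell by 0.58 on the log2 scale, and DKK2, an antagonist, was not above background with vehicle and at least 1.25-fold higher. DKK1, WNT3, WIF1, RSPO2 and NOTUM did not pass, with differences from -0.23 to -0.12. GDF15, BMP2, SFRP1, WNT5A, WNT10B and DKK2 did not pass in the fit of 12 arrays. WNT10B was also lost without vehicle replicate 1 (-0.56), and DKK2 without either vehicle array or LTM replicate 2 (0.26 to 0.49), with dim probes kept (0.47), with an offset of 50 (0.23) and as the mean of its probes (0.33).

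Of insulin-like growth factor binding proteins 4 fell, while members of the CCN and stanniocalcin families rose, within a list in which of 12 tested genes 4 rose and 5 fell, with 3 and 4 of these at least 2-fold, and the median was -0.20. IGFBP2 went from 8.86 and 8.997 to 6.76 and 6.50 (-2.29 ± 0.16), IGFBP6 from 10.60 and 10.61 to 8.86 and 8.51 (-1.92 ± 0.16), and IGFBP7 and IGFBP4 differed by -1.38 ± 0.17 and -0.78 ± 0.16. HTRA1, a secreted protease that cleaves binding proteins, differed by -1.55 ± 0.15. CCN1 and CCN2, matrix-associated targets of YAP, rose by 1.04 ± 0.14 and 0.66 ± 0.17. ESM1, an endothelial proteoglycan, rose by 1.16 ± 0.14, and the stanniocalcin STC2, a glycoprotein induced by ER stress, by 1.01 ± 0.14. IGFBP1, IGFBP3 and STC1 did not pass, with differences between -0.33 and 0.01, although another IGFBP3 probe was lower and passed (-0.64). CCN1 and CCN2 did not pass in the fit of 12 arrays, nor did CCN2 without vehicle replicate 2 (0.53) or under median scaling (0.28).

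Peptide hormones and granins were more often higher than lower: of 14 tested genes 7 rose and 2 fell, with 6 and 2 of these at least 2-fold, and the median was 0.25. CHGB, a granin of secretory granules, went from 5.28 and 5.55 to 8.70 and 8.78 (3.33 ± 0.16, adjusted p = 1.05e-06). VGF, a neurotrophin-induced granin, was already bright and went from 11.19 and 11.11 to 12.92 and 12.88 (1.75 ± 0.14, adjusted p = 9.36e-06). ADM, the vasodilator adrenomedullin, went from 12.04 and 12.23 to 13.30 and 13.23 (1.13 ± 0.15, adjusted p = 0.000137). The granin SCG2 rose as well (1.46 ± 0.17), whereas NMB, a bombesin-like peptide, and GAL, galanin, fell (-1.99 ± 0.15 and -1.76 ± 0.16). PSG4, 1 of 8 listed pregnancy-specific glycoproteins and the member that was measured, was not above background on the vehicle arrays and at least 18.4-fold higher with LTM. ADM did not pass in the fit of 12 arrays, and under median scaling it was at 0.56.

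Of secreted proteases 35.3% fell, near the 30.9% of all genes: of 17 tested genes 3 rose and 6 fell, with 2 and 5 of these at least 2-fold, and the median was -0.22. Of their inhibitors 44.4% fell: of 18 tested genes 5 rose and 8 fell, with 2 and 7 of these at least 2-fold, and the median was -0.32. PLAT, tissue plasminogen activator, went from 10.49 and 10.34 to 8.60 and 8.88 (-1.67 ± 0.16), PLAU, urokinase, differed by -1.07 ± 0.18, and the cathepsins CTSB, CTSD and CTSZ by -1.55 ± 0.16, -1.31 ± 0.15 and -1.59 ± 0.20. The exception in size was ADAMTS6, a metalloprotease with thrombospondin repeats, which rose from 6.75 and 6.63 to 10.14 and 10.73 (3.75 ± 0.20, adjusted p = 1.41e-06). Of the inhibitors, the cystatins CST3 and CSTB and the metalloprotease inhibitors TIMP2 and TIMP3 fell, with differences between -2.07 and -1.55. SERPINB7, an intracellular serpin, went the other way, from 9.02 and 8.97 to 11.67 and 11.82 (2.75 ± 0.15), as did TFPI, the tissue factor pathway inhibitor (1.55 ± 0.19), with 1.45 and 0.32 on its other probes, the latter not passing.

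Of 26 collagen genes 2 rose and 13 fell (median -0.42). The basement membrane chain COL4A2 went from 9.23 and 9.25 to 6.81 and 6.97 (-2.35 ± 0.15, adjusted p = 2.64e-06), COL6A1 differed by -1.86 ± 0.16, and COL18A1, the source of endostatin, was not above background on either LTM array and at least 3.43-fold lower. COL12A1 rose on its brightest probe (1.18 ± 0.23) and fell on another (-0.58), and without LTM replicate 2 the brightest probe gave 0.78, so its direction is not settled. Matrix glycoproteins were more even: of 30 tested genes 8 rose and 10 fell, with 3 and 6 of these at least 2-fold, and the median was 0.03. Their shares, 26.7% and 33.3%, are near the 29.8% and 30.9% of all genes. Tenascin C (TNC), osteopontin (SPP1) and biglycan (BGN) fell, with differences of -1.56 ± 0.15, -1.36 ± 0.16 and -1.81 ± 0.15, and the basement membrane proteins NID1 and LAMA2 rose by 1.74 ± 0.21 and 1.48 ± 0.16. THBS1, thrombospondin 1, did not pass (0.19 ± 0.18).

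**Figure D2:**
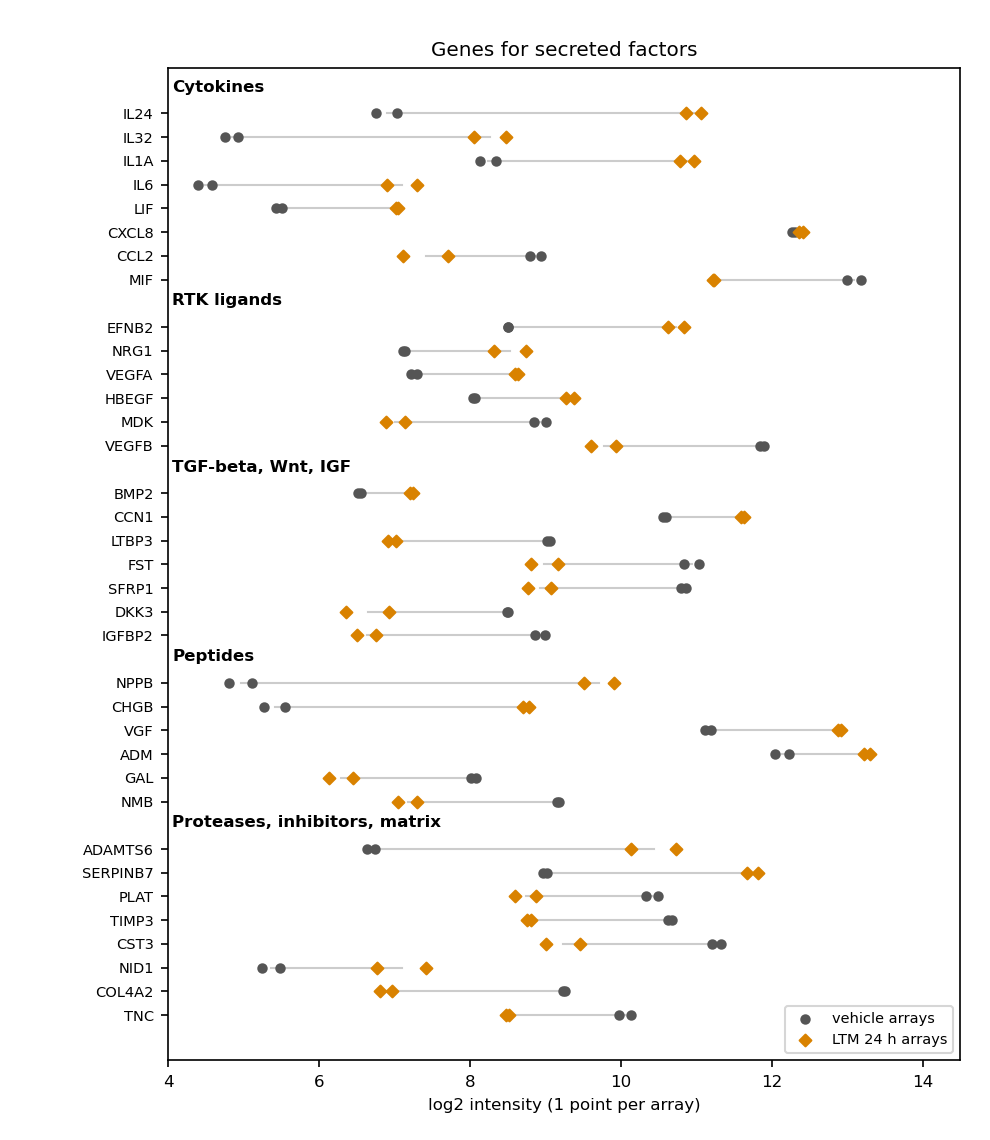
Log2 intensity of genes for secreted factors in each group, with 1 grey circle per vehicle array, 1 orange diamond per LTM array and a line between the group means. Cytokines such as IL24 and peptides such as NPPB and CHGB lie to the right with LTM, VEGFA and VEGFB moved in opposite directions, the 4 CXCL8 points nearly coincide, and COL4A2, IGFBP2 and CST3 lie to the left.

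Transcripts were next read by their known turnover. Lists of genes whose messenger RNA is textbook short-lived (immediate early factors, feedback inhibitors, AU-rich cytokines, cell cycle regulators and decay proteins) held 134 tested genes without zinc finger genes; 73 rose (54.5%) and 24 fell (17.9%), with a median of 0.72. Lists of transcripts known to be long-lived (metabolic enzymes, respiratory chain, ribosomal, lysosomal and cytoskeletal proteins) held 239 tested genes; 22 rose (9.21%) and 137 fell (57.3%), with a median of -0.52. Of all tested genes 29.8% rose and 30.9% fell. Half-lives were not measured in these cells, so the classes rest on general knowledge of these transcripts. The lists were chosen with earlier results of these data known, so the contrast is not an independent result about turnover.

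**Figure D3:**
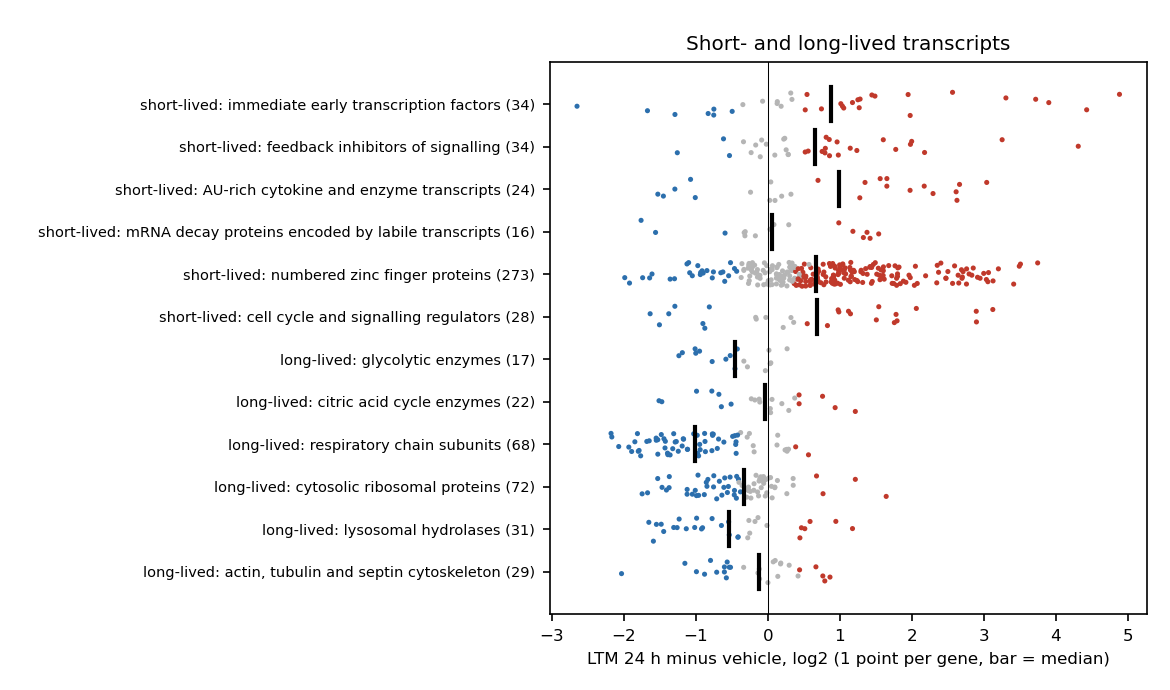
Log2 difference, LTM at 24 h minus vehicle, of every tested gene (1 point each) in 6 lists of short-lived and 6 lists of long-lived transcripts, with the number of tested genes after each name and a black bar at the median. Red points rose, blue points fell and grey points did not pass; medians run from -1.01 for respiratory chain subunits to 0.99 for AU-rich transcripts.

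Immediate early transcription factors, which growth factors and stress induce without new protein synthesis, were on the rising side and held 3 of the 20 largest rises, FOS, EGR1 and ATF3: of 34 tested genes 20 rose and 7 fell, with 17 and 3 of these at least 2-fold, and the median was 0.88. FOS, a subunit of AP-1, was at 6.65 and 6.55 with vehicle and 11.59 and 11.38 with LTM (4.88 ± 0.15, adjusted p = 5.81e-07). EGR1, an early growth response factor, was at 9.81 and 9.64 and 13.31 and 13.95 (3.90 ± 0.21, adjusted p = 1.42e-06). MYC was at 9.19 and 9.34 and 10.68 and 10.74 (1.44 ± 0.15, adjusted p = 2.84e-05). Further rises were ATF3, a stress-induced factor (4.43 ± 0.16), FOSB (3.31 ± 0.14), KLF10 (3.72 ± 0.16) and JUN, the partner of FOS (1.03 ± 0.18). The exceptions were the ID proteins, targets of BMP signalling that block differentiation: ID1 went from 10.54 and 10.59 to 8.18 and 7.65 (-2.65 ± 0.19) and ID3 from 10.62 and 10.72 to 9.32 and 8.67 (-1.67 ± 0.21). CEBPD fell as well (-1.29 ± 0.15). MYC did not pass in the fit of 12 arrays. 

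Genes that switch signalling off were higher too. Feedback inhibitors were counted as 1 list: of 34 tested genes 19 rose and 3 fell, with 9 and 1 of these at least 2-fold, and the median was 0.66. DUSP1 and DUSP5, phosphatases of MAP kinases, went from 8.61 and 8.63 to 10.22 and 10.23 (1.60 ± 0.14) and from 8.95 and 8.92 to 10.99 and 11.22 (2.18 ± 0.15). ERRFI1, an inhibitor of the epidermal growth factor receptor, rose by 1.997 ± 0.15, and TRIB2, SMAD7 and HEXIM1 fell, with differences of -1.26, -0.53 and -0.62. AU-rich transcripts had the highest median of the short-lived lists: of 24 tested genes 13 rose and 5 fell, with 12 and 5 of these at least 2-fold, and the median was 0.99. PTGS2, the inducible cyclooxygenase, rose from 5.63 and 5.71 to 7.07 and 7.58 (1.65 ± 0.18), while CCND1, cyclin D1, fell from 12.61 and 12.60 to 11.31 and 11.31 (-1.29 ± 0.14, adjusted p = 4.55e-05) and PIM1, a labile kinase, fell by 1.53 ± 0.14. Short-lived transcripts were thus found on both sides. DUSP1, ERRFI1, TRIB2 and HEXIM1 did not pass in the fit of 12 arrays, HEXIM1 was also lost without vehicle replicate 1 (-0.51), SMAD7 without vehicle replicate 2 (-0.46), and both in the authors' deposited table (-0.59 and -0.45).

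Cell cycle and signalling regulators with short-lived transcripts followed: of 28 tested genes 15 rose and 7 fell, with 11 and 4 of these at least 2-fold, and the median was 0.69. CCNL1, a cyclin of splicing speckles, went from 9.77 and 9.74 to 12.68 and 13.08 (3.12 ± 0.17), ARID5B, a chromatin regulator, rose by 2.90 ± 0.21, and CCNE1, cyclin E1, fell by 1.64 ± 0.15. MCL1, a survival factor with a labile transcript, differed by probe: its brightest probe was at 9.46 and 9.29 and 9.23 and 9.57 (0.03 ± 0.17, adjusted p = 0.908) and the other gave 2.64 (adjusted p = 1.43e-06). IER3, a stress-induced early gene, did not pass (0.18 ± 0.18). Transcripts for proteins that act on AU-rich messages or on deadenylation were divided. ZFP36, tristetraprolin, rose from 8.81 and 8.92 to 10.47 and 10.33 (1.54 ± 0.15) and BTG1, an activator of deadenylation, by 1.38 ± 0.15, whereas KHSRP, which promotes decay of AU-rich messages, differed by -1.76 ± 0.17 and ELAVL1 (HuR), which stabilises them, by -1.56 ± 0.17. Under median scaling BTG1 was at 0.83.

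Numbered zinc finger genes, many of which encode KRAB repressors with short-lived transcripts, formed the list with the most members. Of 273 tested genes 166 rose and 26 fell, and the median was 0.67. ZNF583 went from 6.31 and 6.21 to 9.89 and 10.13 (3.75 ± 0.15), ZNF79 from 5.41 and 5.21 to 8.79 and 8.85 (3.51 ± 0.15), and ZNF358 fell from 9.88 and 9.74 to 7.82 and 7.83 (-1.99 ± 0.15). Many of these genes lie in clusters on chromosome 19, where 79 of 119 zinc finger genes rose and 9 fell, with a median of 0.81. On the other chromosomes 87 of 154 rose and 17 fell (median 0.59). The rest of chromosome 19, 658 genes, went the other way with 113 rises, 306 falls and a median of -0.34. Zinc finger genes of a cluster are similar in sequence, so their probes may share signal, and this was not tested.

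Respiratory chain subunits, encoded in the nucleus and imported into mitochondria, showed the most uniform fall of the long-lived lists: of 68 tested genes 2 rose and 55 fell, with 0 and 34 of these at least 2-fold, and the median was -1.01. Only 66 of the 68 are annotated as protein-coding. NDUFB7 and NDUFB10, accessory subunits of complex I, went from 12.09 and 12.13 to 9.95 and 9.91 (-2.18 ± 0.14, adjusted p = 3.34e-06) and from 11.84 and 11.93 to 9.79 and 9.64 (-2.17 ± 0.15, adjusted p = 4.04e-06). The 2 rises were ATP synthase subunits, ATP5PB (0.56 ± 0.15, with 0.19 on another probe, which did not pass) and ATP5F1A (0.39 ± 0.14), and under median scaling ATP5F1A turned to -0.23 without passing. Mitochondrial ribosomal proteins moved similarly: of 74 tested genes 9 rose and 42 fell, with 0 and 25 of these at least 2-fold, and the median was -0.58. MRPL34 went from 10.81 and 11.002 to 8.68 and 8.57 (-2.28 ± 0.15). Of mitochondrial import and CHCHD proteins 7 of 33 rose and 16 fell (median 0.01): the cochaperonin HSPE1 differed by -2.01 ± 0.19, and the import motor proteins HSPA9 and TIMM44 rose by 1.31 ± 0.16 and 1.27 ± 0.16. The ATP5F1A call was lost without either vehicle array (0.35 and 0.42), with the replicate number as a block (0.39) or in the authors' deposited table (0.38). The ATP5PB call was lost without vehicle replicate 2 (0.53), and under median scaling its difference was 0.01. The median of the import list was -0.41 under median scaling and also below 0 without either vehicle array (-0.01 and -0.04) or without LTM replicate 1 (-0.19).

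Cytosolic ribosomal proteins, whose messages carry a terminal oligopyrimidine tract that couples them to growth signals, had a median nearer 0: of 72 tested genes 4 rose and 34 fell, with 2 and 11 of these at least 2-fold, and the median was -0.33. Only 69 of the 72 are annotated as protein-coding, and the largest rise of the list (1.64) was a pseudogene. RPL29 went from 11.70 and 11.90 to 10.26 and 9.84 (-1.75 ± 0.18) and RPS28 from 10.07 and 10.05 to 8.37 and 8.40 (-1.67 ± 0.14), while RPL4 rose from 13.21 and 13.10 to 14.07 and 13.77 (0.77 ± 0.16), a call that was lost under median scaling (0.10). Many ribosomal proteins have near-identical processed pseudogenes, so their probes can be shared. Lysosomal enzymes fell in 19 of 31 tested genes and rose in 6; GAA, the acid glucosidase, was not above background with LTM and at least 2.9-fold lower, and the sialidase NEU1 rose by 0.94 ± 0.16. Of glycolytic enzymes 0 of 17 rose and 10 fell (median -0.46), and of citric acid cycle enzymes 5 of 22 rose and 7 fell (median -0.04). ALDOC, a brain-type aldolase, differed by -1.24 ± 0.15 and IDH2, the mitochondrial isocitrate dehydrogenase, by -1.51 ± 0.15.

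Genes often taken as constant were read on their own. GAPDH differed by 0.03 ± 0.14, ACTB by -0.14 ± 0.15 and EEF1A1 by -0.01 ± 0.14 on their brightest probes, which did not pass. Under median scaling GAPDH was lower and passed (-0.48). Other probes of ACTB and EEF1A1 gave 0.61 and -0.84, which passed, so the probes of these genes disagree. TUBB, a beta tubulin whose message is destroyed when free tubulin is in excess, went from 13.32 and 13.39 to 12.41 and 12.37 (-0.97 ± 0.14, adjusted p = 0.000282). In the tubulin list 3 of 15 genes rose and 7 fell (median -0.43). The rises of this list include a gene that does not encode a tubulin.

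The amino acid arm of the integrated stress response was higher. In this response phosphorylation of eIF2 favours translation of ATF4, which with CHOP activates genes for amino acid supply and tRNA charging. Cytosolic aminoacyl-tRNA synthetases rose in 16 of 18 tested genes and fell in 0, with a median of 1.15. LARS1, for leucine, went from 10.32 and 10.19 to 12.48 and 12.87 (2.42 ± 0.17, adjusted p = 4.61e-06). IARS1, for isoleucine, went from 10.80 and 10.70 to 12.52 and 13.17 (2.10 ± 0.21, adjusted p = 2.42e-05). GARS1, for glycine and also used in mitochondria, went from 12.50 and 12.31 to 14.14 and 14.36 (1.85 ± 0.16, adjusted p = 1.13e-05). The separate mitochondrial enzymes were less uniform: of 15 tested genes 9 rose and 3 fell, with 5 and 0 of these at least 2-fold, and the median was 0.42.

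Of regulators and targets of ATF4 and CHOP 13 of 21 rose and 2 fell (median 0.80). ATF4 itself went from 12.57 and 12.70 to 14.57 and 14.48 (1.88 ± 0.15, adjusted p = 7.22e-06), while its other probes gave 2.05 and -0.02, the latter not passing. DDIT3, which encodes CHOP, went from 7.89 and 7.97 to 11.81 and 11.43 (3.69 ± 0.17, adjusted p = 9.23e-07). PPP1R15A, the inducible eIF2 phosphatase subunit, went from 10.70 and 10.91 to 14.06 and 14.06 (3.25 ± 0.15, adjusted p = 9.76e-07). Not all classical targets moved as far: TRIB3, a pseudokinase that restrains ATF4, rose by 0.80 ± 0.16, CHAC1, a glutathione-degrading enzyme, was at least 2.51-fold higher, and DDIT4, an inhibitor of mTORC1, fell by 0.54 ± 0.15. TRIB3 did not pass in the fit of 12 arrays, and DDIT4 not without vehicle replicate 2 (-0.48).

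Among enzymes of amino acid and one-carbon synthesis 12 of 20 rose and 4 fell (median 0.61). CTH, which makes cysteine from cystathionine, was at 6.74 and 6.78 and 11.12 and 10.96 (4.28 ± 0.15, adjusted p = 6.3e-07), and its other probes gave 3.99 and 4.01. ASNS, asparagine synthetase, was at 11.90 and 11.90 and 14.21 and 14.21 (2.31 ± 0.14, adjusted p = 2.45e-06). PSPH, of serine synthesis, rose by 1.61 ± 0.18, and the mitochondrial folate enzyme ALDH1L2 was at least 5.44-fold higher. SHMT1, the cytosolic serine hydroxymethyltransferase, went the other way, from 10.84 and 10.85 to 9.23 and 9.01 (-1.73 ± 0.15). Of amino acid transporters 10 of 25 rose and 5 fell (median 0.11): the subunits of the cystine transporter, SLC7A11 and SLC3A2, rose by 1.60 ± 0.15 and 1.74 ± 0.14, and SLC1A1, for glutamate, fell to background, at least 2.22-fold.

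Promoters were examined because the members rose together. The core of the C/EBP-ATF response element, TGATGCAA, was searched on both strands in the 300 bases from 250 before to 50 after the start of each gene (RefSeq, GRCh38.p14). It stood in 0.537% of 9680 promoters of tested genes, in 1.04% of those of genes that rose at least 2-fold and in 0.222% of those that fell at least 2-fold. Among 15 promoters of aminoacyl-tRNA synthetases 5 held it (33.3%): AARS1, IARS1, MARS1, NARS1 and TARS1, all of which rose; of the 10 without it 9 rose. Under median scaling AARS1 was at 0.33 and did not pass. The element was also in 2 of 18 promoters of ATF4 and CHOP regulators and targets, CHAC1 and PPP1R15B. Of these 2 genes 1 rose, and of the 16 without it 11 rose. In amino acid and one-carbon synthesis 3 of 14 promoters held it, GOT1, BCAT1 and MTHFD1L. These 3 rose, as did 6 of the 11 without it. These lists hold known ATF4 targets, so a high share is built into their choice and is not a result about LTM. The windows below, shown for the 7 members whose match lies fully before the start, carry the element in capitals in either orientation, written 5′ to 3′ on the strand of the gene.
AARS1: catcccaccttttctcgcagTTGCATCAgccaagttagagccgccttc
IARS1: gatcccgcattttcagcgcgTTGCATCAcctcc
CHAC1: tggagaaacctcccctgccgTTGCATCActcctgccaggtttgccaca
GOT1: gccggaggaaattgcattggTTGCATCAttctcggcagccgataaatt
BCAT1: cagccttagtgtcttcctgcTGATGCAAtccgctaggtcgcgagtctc
MTHFD1L: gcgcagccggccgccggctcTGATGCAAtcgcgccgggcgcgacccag
PPP1R15B: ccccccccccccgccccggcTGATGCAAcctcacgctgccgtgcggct
The windows lie, in order, AARS1 at chr16:70289666-70289713 (minus strand), IARS1 at chr9:92293698-92293730 (minus strand), CHAC1 at chr15:40953242-40953289 (plus strand), GOT1 at chr10:99430795-99430842 (minus strand), BCAT1 at chr12:24949122-24949169 (minus strand), MTHFD1L at chr6:150866337-150866384 (plus strand) and PPP1R15B at chr1:204412017-204412064 (minus strand), in GRCh38.p14. The values of their genes were 0.88 ± 0.14 for AARS1, 1.46 ± 0.14 for GOT1, 0.88 ± 0.19 for BCAT1 and 0.83 ± 0.18 for MTHFD1L, with IARS1 and CHAC1 given above. PPP1R15B, the constitutive eIF2 phosphatase subunit, holds the element and did not pass (0.32 ± 0.15). AARS1, MARS1, NARS1, BCAT1, MTHFD1L and PPP1R15B were named after their values were seen, because they hold the element. A match describes these letters only and is not a bound site.

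Ribosome quality control and translation factors were higher as well. Of genes for ribosome stalling and rescue 12 of 23 rose and 3 fell (median 0.45). ASCC3, the helicase that splits collided ribosomes, went from 8.44 and 8.44 to 10.16 and 10.60 (1.94 ± 0.17) with 1.07 and 0.39 on its other probes, NEMF, which marks stalled chains, rose by 1.48 ± 0.16, and EDF1, a sensor of collisions, fell from 11.98 and 11.94 to 10.95 and 10.70 (-1.13 ± 0.15). Kinases of the ribotoxic stress pathway were even, 8 of 23 rose and 8 fell (median -0.17), with MAP2K3, an activator of p38, at 1.49 ± 0.14. Their shares, 34.8% each, are near the 29.8% and 30.9% of all genes. Of initiation and elongation factors 25 of 49 rose and 4 fell (median 0.41). EIF4A2, a helicase of initiation, went from 11.47 and 11.53 to 13.87 and 14.24 (2.56 ± 0.17, adjusted p = 3.23e-06), and EIF4EBP1, the repressor of cap binding, from 8.25 and 8.42 to 6.36 and 5.83 (-2.24 ± 0.19, adjusted p = 1.13e-05). MAP2K3 did not pass in the fit of 12 arrays.

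Ribosome biogenesis genes were on the rising side: of 62 tested genes 41 rose and 8 fell, with 28 and 4 of these at least 2-fold, and the median was 0.76. NOC3L and UTP14A, assembly factors of the pre-ribosome, went from 9.67 and 9.50 to 11.80 and 12.58 (2.60 ± 0.23) and from 10.59 and 10.38 to 12.59 and 12.81 (2.21 ± 0.16). The exceptions included small nucleolar RNA-protein components: FBL, fibrillarin, differed by -1.18 ± 0.17 and NOP10 by -1.47 ± 0.14. The E-box CACGTG, which MYC and other factors bind, was in 29.6% of 54 promoters of the list and in 10.2% of the promoters of all tested genes. The ETS motif CCGGAAG was in 38.9% of them, against 18.0% of all, 25.0% of genes that rose at least 2-fold and 12.1% of genes that fell as much. Zinc finger genes held the ETS motif in 43.3% of 238 promoters.

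Host genes of small nucleolar RNAs and other transcripts that nonsense-mediated decay is known to remove were higher: of 26 tested genes 20 rose and 3 fell, with 15 and 2 of these at least 2-fold, and the median was 1.34. SNHG15 went from 10.44 and 10.37 to 13.11 and 13.09 (2.69 ± 0.14, adjusted p = 1.41e-06), ZFAS1 from 11.69 and 11.56 to 13.63 and 13.48 (1.93 ± 0.15, adjusted p = 7.08e-06), and TAF1D, a subunit of an RNA polymerase I factor and also a host gene, from 6.74 and 6.40 to 9.57 and 9.80 (3.12 ± 0.17, adjusted p = 1.63e-06). CLK1 and CLK4, splicing kinases with decay-prone isoforms, rose by 2.73 ± 0.15 and 3.27 ± 0.18. DANCR, a host gene too, fell from 10.64 and 10.61 to 9.12 and 8.80 (-1.66 ± 0.16). The small nucleolar RNA genes themselves were on the opposite side: of 120 tested 5 rose and 63 fell, with a median of -0.45. SNORA61 went from 10.34 and 10.49 to 8.07 and 7.70, SNORD95 rose by 2.25 ± 0.18, and both genes were chosen for naming after seeing their values. The arrays were made from amplified polyadenylated RNA, which these RNAs lack when mature, so such probes may read precursors or host transcripts, and this was not tested.

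Genes of the decay machineries were divided, in part by their genomic span. Of nonsense-mediated decay factors 8 of 15 rose and 4 fell (median 0.39): SMG1, the kinase of the pathway, rose by 0.97 ± 0.18, and UPF1, its helicase, fell by 0.81 ± 0.14. UPF2 rose on its brightest probe (1.35 ± 0.21) and on another (1.23), while its remaining probes fell (-0.67 and -0.77). Of exosome and deadenylase subunits 16 of 39 rose and 8 fell (median 0.25). CNOT4, a ubiquitin ligase of the CCR4-NOT complex, went from 9.20 and 8.90 to 10.97 and 11.51 (2.19 ± 0.20), EXOSC4, an exosome core subunit, from 10.26 and 10.24 to 8.72 and 8.30 (-1.74 ± 0.17), and LSM2, of the decapping ring, from 11.74 and 11.78 to 9.67 and 9.10 (-2.38 ± 0.19). Split at the median genomic span of the list, 22.3 kb, the shorter genes had 3 rises and 8 falls among 20 (median -0.23) and the longer ones 13 rises and 0 falls among 19 (median 0.81).

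Genes of other complexes were divided in the same direction. Of small nuclear ribonucleoprotein genes up to 16.04 kb 0 of 17 rose and 13 fell, and of longer ones 6 of 16 rose and 5 fell; SNRNP25, of the minor spliceosome, differed by -2.37 ± 0.17 and SF3B1, of the U2 particle, by 1.32 ± 0.16 (another probe 0.28, not passing). Of RNA polymerase II and Mediator genes up to 17.8 kb 4 rose and 10 fell, and of longer ones 8 rose and 5 fell; POLR2I differed by -1.53 ± 0.16 and MED13 by 1.92 ± 0.14. Of proteasome genes up to 13.6 kb 2 rose and 12 fell, and of longer ones 5 rose and 6 fell; the immunoproteasome subunit PSMB10 differed by -1.70 ± 0.16 and the activator PSME4 by 1.30 ± 0.17. Of mitochondrial ribosomal protein genes up to 9.17 kb 2 rose and 25 fell, and of longer ones 7 rose and 17 fell. Of mitochondrial import and CHCHD genes up to 7.02 kb 2 rose and 12 fell, and of longer ones 5 rose and 4 fell. Respiratory chain genes did not split this way, with 29 falls up to 8.17 kb and 26 above. Cytosolic ribosomal protein genes went the other way, with 15 falls and a median of -0.24 in the shorter genes and 19 falls and -0.42 in the longer ones.

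Over all 11376 protein-coding genes the share that rose went from 18.1% in the shortest of 5 equal bins of genomic span (up to 9.09 kb) to 37.5% in the longest (from 94.1 kb), and the share that fell from 43.5% to 22.9%. The medians of the bins, from short to long, were -0.27, -0.11, 0.04, 0.13 and 0.15. The rank correlation across genes was 0.208, and 0.226 over 9092 genes detected on all 4 arrays; genes are not independent replicates. Among those genes, split again into 3 classes of low, middle and high level, the shortest bin had 17.8%, 23.1% and 16.6% rises and the longest 30.9%, 45.5% and 49.3%. Some short genes rose: 185 of 2276 in the shortest bin (8.13%) rose at least 2-fold, among them 13 immediate early and 16 histone genes. That share was the lowest of the 5 bins, against 18.6% in the longest bin and 14.3% of all genes tested. Genes with GC-rich promoters fell more often, in 41.1% of the highest of 5 bins of promoter GC against 22.3% of the lowest. Span, promoter composition, transcript length and known half-life go together across genes and were not separated.

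**Figure D4:**
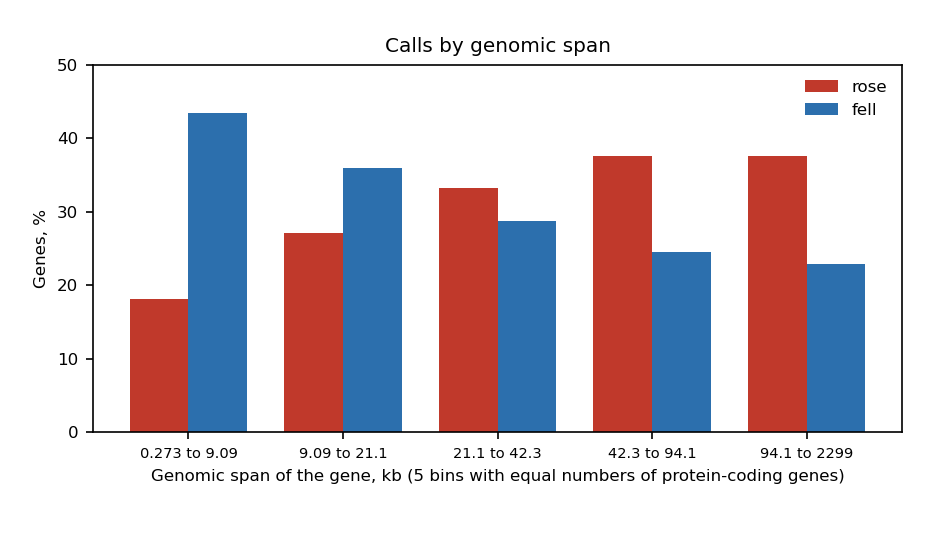
Percent of protein-coding genes that rose (red) and fell (blue) after 24 h of LTM, by 5 equal bins of genomic span in kb from RefSeq. The red bars go from 18.1% to 37.5% and the blue bars from 43.5% to 22.9% between the shortest and the longest bin.

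NF-kB subunits and targets leaned to higher values: of 27 tested genes 18 rose and 3 fell, with 13 and 2 of these at least 2-fold, and the median was 0.99. In this pathway the labile inhibitor IkB-alpha (NFKBIA) holds the factor in the cytoplasm and is itself a target, as is TNFAIP3 (A20), a ubiquitin-editing inhibitor. TNFAIP3 went from 4.94 and 4.76 to 8.80 and 9.53 (4.31 ± 0.22, adjusted p = 1.36e-06). NFKBIA went from 10.35 and 10.31 to 11.42 and 10.86 (0.81 ± 0.19, adjusted p = 0.0046). The subunit genes NFKB1, NFKB2 and RELB rose by 1.51 ± 0.15, 3.05 ± 0.15 and 2.93 ± 0.17. All LTM arrays lay above all vehicle arrays for these genes. SOD2, the mitochondrial superoxide dismutase, and CCL2 went against the list, with SOD2 at -1.26 ± 0.21. NFKBIA did not pass in the fit of 12 arrays and was at 0.53 without LTM replicate 1, and NFKB1 was at 0.89 under median scaling.

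The NF-kB motif (3 G, any 2 bases, 3 T and 2 C), searched in the same promoter windows on both strands, was in 34.8% of 23 promoters of the NF-kB list and in 2.17% of those of all tested genes. The list was made of known NF-kB subunits and targets, so a high share is built into its choice and is not a result about LTM. Of the 8 genes with it 6 rose, and of the 15 without it 10 rose. The windows are shown for the 5 named genes that hold it and rose and for NFKBIZ and CCL20, which hold it and did not pass, with the match in capitals and on the strand of the gene; TNFAIP3 holds another match overlapping this window.
TNFAIP3: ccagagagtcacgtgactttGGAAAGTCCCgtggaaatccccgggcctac
NFKBIA: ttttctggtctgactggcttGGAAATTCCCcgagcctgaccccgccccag
NFKB1: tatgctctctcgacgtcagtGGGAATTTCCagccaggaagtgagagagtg
IL6: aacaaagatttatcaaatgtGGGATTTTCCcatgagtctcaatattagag
IL32: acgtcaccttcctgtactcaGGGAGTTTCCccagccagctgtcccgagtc
NFKBIZ: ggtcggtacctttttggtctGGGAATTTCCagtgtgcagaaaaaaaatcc
CCL20: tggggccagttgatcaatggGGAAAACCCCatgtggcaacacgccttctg
The windows lie, in order, TNFAIP3 at chr6:137867172-137867221 (plus strand), NFKBIA at chr14:35404801-35404850 (minus strand), NFKB1 at chr4:102501290-102501339 (plus strand), IL6 at chr7:22727107-22727156 (plus strand), IL32 at chr16:3065284-3065333 (plus strand), NFKBIZ at chr3:101827747-101827796 (plus strand) and CCL20 at chr2:227813743-227813792 (plus strand), in GRCh38.p14. NFKBIZ was at -0.02 ± 0.15 and CCL20 at 0.19 ± 0.14; NFKB1 and NFKBIZ were named after their values were seen, for their motif.

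Targets of p53 rose in 20 of 31 tested genes and fell in 2, with a median of 1.09. GADD45A, a stress sensor that many factors induce, went from 10.26 and 10.30 to 13.42 and 13.22 (3.04 ± 0.15, adjusted p = 1.14e-06). MDM2, the ligase that destroys p53, went from 4.86 and 5.45 to 7.43 and 7.48 (2.29 ± 0.20, adjusted p = 1.19e-05), PPM1D, a phosphatase of the same loop, rose by 2.10 ± 0.16, and RRM2B, the p53-induced ribonucleotide reductase subunit, by 2.51 ± 0.20. Of the cell death genes PMAIP1 (NOXA) rose by 2.89 ± 0.16 and BAX fell from 9.68 and 9.81 to 8.35 and 7.49 (-1.83 ± 0.25). In the BCL2 family 6 of 20 rose and 8 fell (median 0.00), or 30% and 40% against 29.8% and 30.9% of all genes.

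Genes of the circadian clock rose in 15 of 19 tested genes and fell in 1. The clock is a loop in which BMAL1 and its partner activate PER and CRY genes, whose products repress them. BMAL1 of the positive limb went from 5.995 and 5.86 to 8.80 and 9.12 (3.04 ± 0.16, adjusted p = 1.48e-06). CRY1 of the negative limb went from 7.96 and 8.002 to 11.03 and 11.43 (3.25 ± 0.17, adjusted p = 1.36e-06). PER2 rose on its brightest probe, from 7.71 and 7.47 to 9.69 and 9.44 (1.98 ± 0.16, adjusted p = 9.57e-06), and not on its other probe (-0.31). Genes of both limbs were thus higher, and the kinase gene CSNK1E was the fall (-0.72 ± 0.15). YAP targets rose in 12 of 22, led by ANKRD1, a muscle ankyrin repeat protein, from 6.63 and 6.68 to 9.91 and 9.99 (3.29 ± 0.14).

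Most genes of the proliferation lists fell. Of DNA replication genes 5 of 54 rose and 34 fell (median -0.67), and of mitotic genes 2 of 49 rose and 32 fell (median -0.61). GINS2, of the replicative helicase, went from 11.63 and 11.66 to 9.92 and 9.27 (-2.05 ± 0.21) and POLD1, the catalytic subunit of polymerase delta, from 9.41 and 9.34 to 7.42 and 7.31 (-2.01 ± 0.15). SPC25, of the kinetochore, went from 7.93 and 7.78 to 5.62 and 5.18 (-2.45 ± 0.18). The exceptions included ORC5, of the origin recognition complex (1.39 ± 0.15), and HMMR, a spindle-associated hyaluronan receptor (0.70 ± 0.16). HMMR did not pass in the fit of 12 arrays.

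Histone genes divided by type. The clustered genes, whose messages end in a stem-loop without a poly(A) tail and are made in S phase, rose in 28 of 41 and fell in 1, with a median of 0.84, and 14 of them were not above background on either vehicle array. The 8 other histone genes, which encode variants, had 2 rises and 5 falls and a median of -0.69. H2AC6 of the first type went from 6.08 and 6.28 to 10.80 and 10.32 (4.39 ± 0.19, adjusted p = 7.14e-07). H2AX, which is phosphorylated at DNA breaks, went from 9.76 and 9.62 to 7.97 and 7.73 (-1.84 ± 0.16), and H2AZ2 from 6.34 and 6.36 to 4.83 and 4.95 (-1.46 ± 0.14). Clustered histone genes are near-identical in sequence, so their probes cannot always be told apart, and priming from poly(A) samples only the tailed share of these messages.

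**Figure D5:**
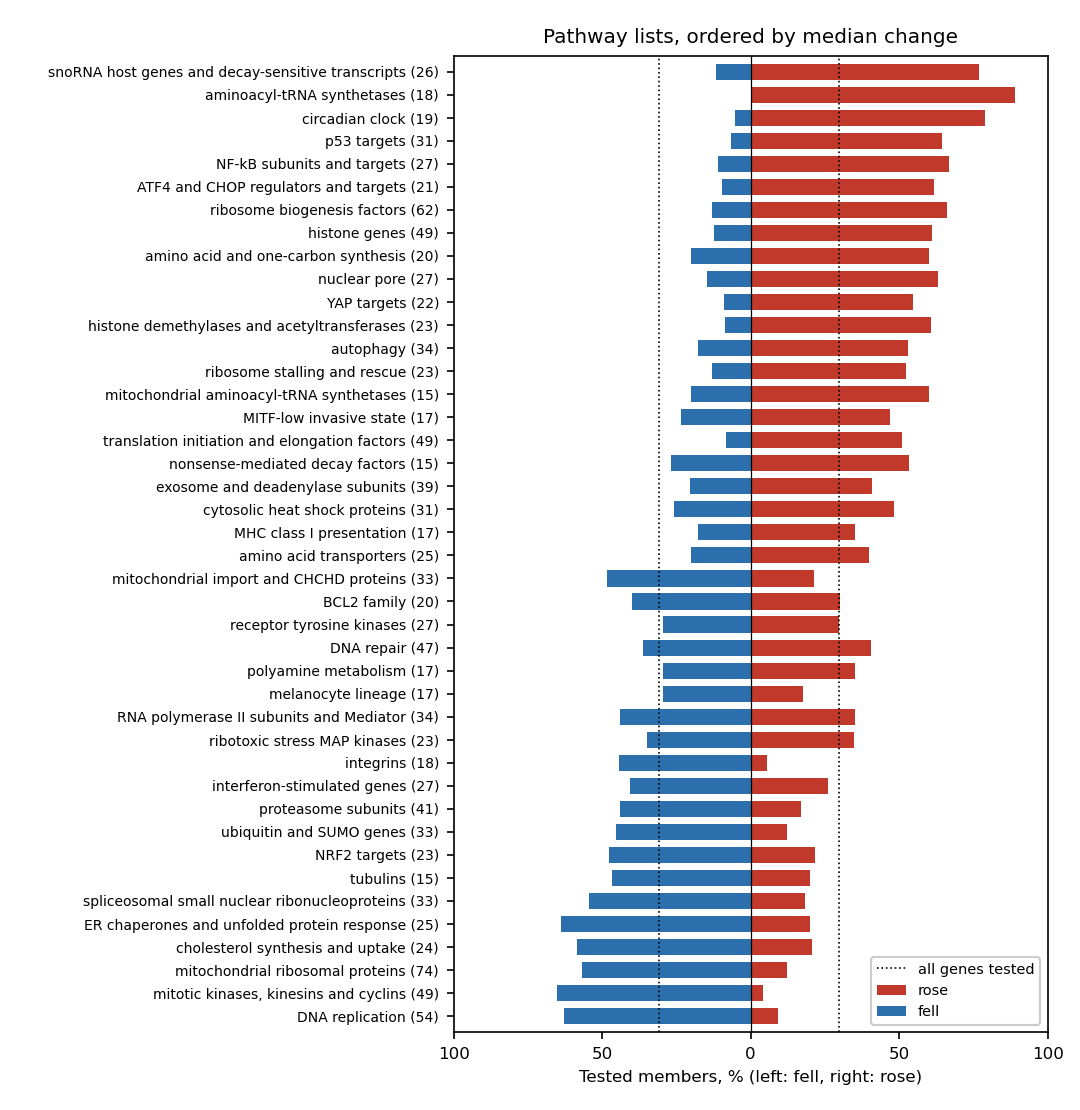
Percent of tested members that rose (red, to the right) and fell (blue, to the left) in each pathway list with at least 15 tested genes, ordered by the median change, with the number of tested genes after each name. Dotted lines mark the shares over all genes tested, 29.8% rises and 30.9% falls; aminoacyl-tRNA synthetases have no fall, and DNA replication and mitotic genes have few rises.

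Protein folding genes went different ways by compartment. Of ER chaperone and unfolded protein response genes 5 of 25 rose and 16 fell (median -0.46). The chaperone cofactor SDF2L1 went from 10.25 and 10.30 to 8.08 and 7.88 (-2.29 ± 0.15) and SEC61B, of the translocon, from 11.74 and 11.78 to 9.63 and 9.54 (-2.18 ± 0.14), whereas XBP1, a transcription factor of the response, rose from 10.73 and 10.62 to 12.49 and 12.75 (1.95 ± 0.16). ATF6, a sensor of ER stress, rose by 1.33 ± 0.15. Of cytosolic heat shock proteins 15 of 31 rose and 8 fell (median 0.23): CHORDC1, an HSP90 cochaperone, rose by 2.36 ± 0.16, and the inducible HSPA1A fell by 1.34 ± 0.16. Under median scaling the median of that list was -0.16. HSPA1A did not pass in the fit of 12 arrays.

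Lipid and redox genes leaned lower. Of cholesterol synthesis and uptake genes 5 of 24 rose and 14 fell (median -0.55): PMVK, phosphomevalonate kinase, differed by -1.75 ± 0.19 and the desaturase SCD by -1.51 ± 0.14, while HMGCS1, an early enzyme, rose from 9.18 and 9.17 to 10.24 and 10.17 (1.03 ± 0.14). Of NRF2 targets 5 of 23 rose and 11 fell (median -0.34). NFE2L2, which encodes the labile NRF2, rose from 9.27 and 9.32 to 11.11 and 11.28 (1.90 ± 0.15), its target HMOX1, heme oxygenase, rose by 1.02 ± 0.15, and the aldo-keto reductase AKR1C2 fell from 8.43 and 8.45 to 6.43 and 5.69 (-2.39 ± 0.22). Metallothioneins, small metal-binding proteins with very short genes, had 0 rises and 4 falls among 6 genes: MT1G, MT1E, MT2A and MT1X fell, with differences of -1.26 ± 0.15, -1.01 ± 0.15, -0.52 ± 0.16 and -0.47 ± 0.14, and MT1F and MT1M did not pass (-0.03 ± 0.15 and -0.11 ± 0.15). In the fit of 12 arrays MT1E and MT1X did not pass, MT1X was also lost without either vehicle array (-0.46 and -0.48), and MT2A without vehicle replicate 2 (-0.42) or LTM replicate 1 (-0.41).

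Autophagy genes rose in 18 of 34 and fell in 6. SQSTM1, the cargo receptor p62, went from 13.07 and 13.14 to 14.39 and 14.45 (1.31 ± 0.14), GABARAPL1 rose by 2.11 ± 0.19 and MAP1LC3B by 1.46 ± 0.15, but their relatives GABARAP and MAP1LC3A differed by -1.08 ± 0.22 and -1.14 ± 0.17. In polyamine metabolism, where translation controls its key enzyme through antizyme, ODC1, ornithine decarboxylase, went from 9.93 and 9.78 to 12.40 and 12.64 (2.66 ± 0.16, adjusted p = 2.05e-06). The catabolic enzyme SAT1 rose by 1.503 ± 0.17, and the antizyme gene OAZ1 did not pass (0.09 ± 0.15), although under median scaling it was lower and passed (-0.59). GABARAP did not pass in the fit of 12 arrays and was at -0.71 without vehicle replicate 2. Under median scaling SQSTM1 was at 0.68.

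Of genes of the melanocyte lineage 3 of 17 rose and 5 fell (median -0.10). The share that fell, 29.4%, is near the 30.9% of all genes, and the share that rose was 17.6% against 29.8%. MITF, the lineage transcription factor, was dim and rose from 5.37 and 5.80 to 6.91 and 7.23 (1.48 ± 0.19, adjusted p = 0.000108), whereas SOX10, its activator, fell to 10.36 and 10.40 (-1.02 ± 0.14, adjusted p = 0.000198). ERBB3, a receptor of neural crest cells, went from 10.30 and 10.05 to 7.63 and 7.48 (-2.62 ± 0.16, adjusted p = 2.21e-06). EGFR went the opposite way, from 5.69 and 5.85 to 7.66 and 7.91 (2.02 ± 0.16, adjusted p = 7.47e-06). Of 27 receptor tyrosine kinases 8 rose and 8 fell (median -0.05). These shares, 29.6% each, are near the 29.8% and 30.9% of all genes. Of 18 integrins 1 rose and 8 fell (median -0.18), and ITGB3, the beta chain of the vitronectin receptor, differed by -1.82 ± 0.15.

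Interferon-stimulated genes did not rise as a group: 7 of 27 rose and 11 fell (median -0.24). ISG15, a ubiquitin-like modifier, went from 7.75 and 7.91 to 5.94 and 5.74 (-1.99 ± 0.15), while the RNA sensor IFIH1 and the transcription factor IRF1 rose by 2.35 ± 0.22 and 1.96 ± 0.14. HLA-B, a classical class I chain, went from 8.14 and 7.94 to 10.22 and 9.95 (2.04 ± 0.16), and its probe may read other class I genes.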

How the data were processed

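Per the labels' protocols, RNA was purified with TRIzol and a column, amplified and labelled with biotin. All 12 arrays were positions of 1 BeadChip. The authors deposited a scanner table with a linear intensity per probe, exported from GenomeStudio per the submitters' processing notes, and beside each a detection p-value, per the file headers; the version is not given in the sources used here. Their separate processed table holds linear intensities of 38223 probes with background correction and normalization unknown, and served as an alternative. It is on a linear scale and not centred: for these 4 arrays rank correlations of 0.974 to 0.978 joined each column to its own scanner signal, against at most 0.919 to another, and column medians were 23.5 to 24.4.

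Intensities were processed here with limma 3.58.1 in R 4.3.3: neqc with an offset of 16 and the background inferred from the detection p-values, quantile normalization over 12 arrays, and log2. Probes detected (p under 0.05) on at least 2 arrays were kept. Named genes came from the platform annotation (27004 probes with 1 symbol, 4 with several; 8371 passing probes have no name here), and each gene was represented by its brightest probe. lmFit and eBayes were run on the 4 arrays (2 residual and 7.36 prior degrees of freedom), and p-values were adjusted after Benjamini and Hochberg over 12131 genes, and the procedure was tested on simulated data. "Rose" and "fell" mean an adjusted p under 0.05. A gene not above background on either array of a group is given a lower bound of its fold.

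Named genes were the 20 largest rises and falls with arrays not overlapping, up to 5 members of a list in its commoner direction and up to 3 in the other, all members of lists with up to 12 measured genes, and a set of fixed genes; exceptions are stated. Members, lists and rules were chosen with earlier results of these data known. Promoter windows and gene spans are from RefSeq, GRCh38.p14. The number of arrays limits the precision. Same-numbered replicates did not deviate together (correlation -0.12), so the numbers are not taken as pairs.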

Additional observations from a re-analysis of the deposited data

Results flagged for a closer look

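Probes without a gene name were left out of the comparison and were read from a separate fit. That fit held all 24325 probes that passed the detection threshold, and its p-values were adjusted over these. Of 8371 probes without a gene name 1485 rose and 2029 fell, smaller shares than the 29.8% and 30.9% of the named genes. At least 2-fold, 704 of them rose and 830 fell. ILMN_1904238 went from 6.12 and 5.67 to 11.15 and 11.004, a difference of 5.18 ± 0.18. ILMN_1807291 differed by 5.01 ± 0.18. ILMN_3179620 went from 10.76 and 10.67 to 7.35 and 7.23, a difference of -3.42 ± 0.15. They stand here because they lie outside the named genes compared above, and without a gene name they were not described there.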

How the results depend on the processing

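The counts of 3619 rises and 3752 falls were recomputed under 18 alternatives, and each stayed within 1.5 times its value. Rises ran from 2885 (all 12 arrays in the fit) to 3912 and falls from 2866 to 4160 (median scaling). At least 2-fold, rises ran from 1317 (offset 50) to 1948 and falls from 1197 to 1902. Leaving out 1 array gave 2991 to 3912 rises and 3040 to 3868 falls. With the replicate number as a block there were 3628 rises and 3736 falls, and 1 of 247 named calls was lost. A crossed pairing, added after the data were seen, gave 3822 rises and 3976 falls. Of the 247 named calls 210 held under every alternative that measured them, 37 were lost under at least 1 and 1 turned sign: under median scaling ATP5F1A was at -0.23, while GAPDH (-0.48) and OAZ1 (-0.59) became calls. With only probes detected on all 4 arrays 224 of the 247 were measured, so the rest were not tested there. Of 41 lists with a median of at least 0.3 either way 0 changed sign; 10 of 70 lists did, all nearer 0. Means of all probes ended the calls of COL12A1, UPF2, ATP5PB and DKK2. Sizes moved by over 1.5 times for 13 of the 247 with means of all probes, for 20 with an offset of 50 and for 13 under median scaling, where HSPA9 was at 0.75, SLC3A2 at 1.16 and MT2A at -1.04. Dim probes limit some folds to bounds: 454 genes were not above background on either vehicle array and detected on both LTM arrays, and 309 had the reverse pattern. Genes detected on only 1 array of the other group can also have a bound and are not in these counts.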

Other observations

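Nuclear and chromatin genes not described above were also on the rising side. Of nuclear pore genes 17 of 27 rose and 4 fell (median 0.58); NUP58, of the central channel, went from 5.17 and 5.75 to 7.48 and 7.69 (2.12 ± 0.20), and NUP210, a membrane nucleoporin, fell by 1.22 on the log2 scale. Of histone demethylases and acetyltransferases 14 of 23 rose and 2 fell (median 0.54), led by the demethylase KDM5B, from 8.79 and 8.81 to 11.22 and 11.70 (2.66 ± 0.18). DNA repair genes were divided: 19 of 47 rose and 17 fell (median -0.08): the excision repair nuclease ERCC5 rose by 1.82 ± 0.21 and BRCA1, of homologous recombination, differed by -1.55 ± 0.14. Of ubiquitin and SUMO genes 4 of 33 rose and 15 fell (median -0.31), UBE2T and UBE2C, conjugating enzymes of DNA repair and mitosis, among the falls (-1.83 ± 0.18 and -1.72 ± 0.16). Of 17 tested genes of the MITF-low invasive state 8 rose and 4 fell, with 7 and 3 of these at least 2-fold (median 0.41). ZEB1, a regulator of epithelial to mesenchymal change, was at least 2.55-fold higher from below background, whereas TNC and WNT5A were among the falls. MITF itself rose, as given above. MHC class I presentation genes had 6 of 17 rose and 3 fell (median 0.22), and 6 fibroblast markers had 1 rise and 2 falls.

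Of 275 long noncoding RNA genes 38 rose (13.8%) and 62 fell (22.5%), both below the 29.8% and 30.9% of all genes. Symbols ending in antisense form had 8 rises and 24 falls among 74, and the 32.4% that fell is near the share of all genes; the strand of these probes was not checked against their partner genes.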
